A study of Mus musculus with 12 samples.

Results

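The 31 genes described here encode the enzymes that make cholesterol, the proteins that sense it, and the proteins that export, store or hydroxylate it. They were found in the table by gene symbol, and all 31 had a row in the count table of 54547 mouse genes. All 31 passed the filter on low values, which asked for 10 normalized counts or more in 3 or more libraries, and 29835 genes did in all. By role, 18 are synthesis enzymes, 5 belong to SREBP control, 5 to the LXR and efflux arm, and 3 to storage, transport and hydroxylation. Members, roles and the further lists below were chosen with earlier results of these data known. Counts by role or list are therefore a description and not a test.

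The libraries come from brain cells of mice on a mixed 129;C57BL/6 background. All mice carried Msi1-CreER, a tamoxifen-inducible Cre recombinase driven by Musashi-1, a gene of neural stem and progenitor cells. In Msi1-CreER;RasV12 mice the GFP+ cells and the CD11b+ phagocytes came from a tumor (RasV12 GFP+ and RasV12 CD11b+). In Msi1-CreER;GFP mice both came from the cerebellum (control GFP+ and control CD11b+), so genotype and tissue differ together between the groups. Each of the 4 groups had 3 libraries of total RNA, 12 in all. The labels give no age, no gate and no cell number, and they do not say that the 3 libraries of a group are separate animals. The spread behind each p-value is therefore that between libraries, and it may be technical. CD11b is a surface integrin of microglia, monocytes, macrophages and neutrophils, and its gene Itgam had a normalized count of 0.0 in every control GFP+ library and of 0.0 to 0.5 in RasV12 GFP+, against 5117 ± 126 in control CD11b+ and 1936 ± 1009 in RasV12 CD11b+ (mean ± SD, n = 3, as throughout). The level of the RasV12 transgene was not analysed here.

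Cells make cholesterol from acetyl-CoA by way of mevalonate, squalene and lanosterol. When sterols in the endoplasmic reticulum fall, SCAP escorts the SREBP transcription factors out of it and they switch on the synthesis enzymes, while INSIG proteins hold SCAP back when sterols are plentiful. Oxysterols activate the nuclear receptors LXR alpha and LXR beta, which switch on the exporters ABCA1 and ABCG1 and the ubiquitin ligase MYLIP (IDOL), which degrades the LDL receptor. The brain makes its own cholesterol, much of it in oligodendrocytes for myelin and in astrocytes, which pass it on in particles that hold apolipoprotein E, and phagocytes that take up myelin have cholesterol to export.

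Promoters (250 bases before to 50 after the start, RefSeq, GRCm38.p6) were at hand for 26 of the 31 members and were searched on both strands for 3 motifs, none of which contains another: TCACNCCAC, part of the classical SREBP element, CACGTG, the E-box, and CCAAT, the box bound by NF-Y, a known partner of SREBPs. TCACNCCAC was found in 1 of the 26 members, Hmgcs1, and in 1.4% of 27025 genes. CACGTG was found in 6 of the 26 (Hsd17b7, Sc5d, Dhcr7, Scap, Insig1 and Abca1) and in 8.1% of genes. CCAAT was found in 21 of the 26 and in 41.1% of genes. It was present in 14 of the 15 matched synthesis enzymes, all but Acat2, and in 7 of the 11 other matched members, the exceptions being Scap, Nr1h2, Nr1h3 and Abca1. A match describes these letters in this window and is not a measured binding site. The upstream stretches of 3 members that differed in the comparisons between genotypes are shown 5′ to 3′ on the gene's strand, 150 bases each, with the motif matches in capitals. Nr1h2, which also differed, had none of the 3 motifs and is not shown. For Insig2 the first listed promoter is shown, and its other listed promoters had no match. The stretches hold an enzyme promoter with the SREBP letters and CCAAT, a SREBP control promoter with CCAAT alone, and an exporter promoter with the E-box alone.

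Hmgcs1 (chr13:119690171-119690320, + strand, 180 to 31 bases before the start; TCACCCCAC begins 137 bases before the start, and ATTGG is CCAAT on the other strand): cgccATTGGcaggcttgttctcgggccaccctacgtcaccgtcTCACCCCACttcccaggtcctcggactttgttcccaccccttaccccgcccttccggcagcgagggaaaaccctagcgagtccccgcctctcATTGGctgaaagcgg
Insig2 (chr1:121332590-121332739, - strand, 150 to 1 bases before the start): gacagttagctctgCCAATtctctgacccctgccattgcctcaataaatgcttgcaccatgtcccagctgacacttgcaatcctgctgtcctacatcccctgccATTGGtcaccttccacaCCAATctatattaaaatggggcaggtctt
Abca1 (chr4:53159896-53160045, - strand, 150 to 1 bases before the start): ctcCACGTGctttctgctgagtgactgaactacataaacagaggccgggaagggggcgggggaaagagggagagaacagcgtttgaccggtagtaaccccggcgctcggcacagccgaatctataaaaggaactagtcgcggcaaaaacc

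Several libraries stand apart. Reads assigned to genes numbered 18519240 to 34601205 in 9 libraries, but 7883870 in control CD11b+ 2, 3642570 in RasV12 CD11b+ 1 and 2951629 in RasV12 CD11b+ 2. The authors' normalization gave each read of the last 2 a weight of 4.46 and 5.54 normalized counts, against 0.358 to 1.5 elsewhere. Reads on 1984 olfactory and vomeronasal receptor genes, which brain cells are not known to use broadly, gave a background in normalized counts per kilobase. For GFP+ cells it was 0.928 to 2.21 (control) and 2.07 to 3.82 (RasV12), and for CD11b+ cells 5.21 to 42.5 (control, library 2 highest) and 66.7 to 102.1 (RasV12). Scaled to each gene's length, 29, 30, 19 and 4 of the 31 members lay above this background in all 3 libraries of control GFP+, RasV12 GFP+, control CD11b+ and RasV12 CD11b+. In RasV12 CD11b+ the 4 were Hmgcs1, Cyp51, Msmo1 and Sc5d, and 11 members were below it in all 3 libraries. Mitochondrial reads made up 20.1 to 30.4% of the control and 1.53 to 2.62% of the RasV12 libraries of GFP+ cells, and 0.63 to 2.54% and 13.3 to 17.7% of those of CD11b+ cells. The highest correlation of a library with another of its group, on the log2(count + 1) scale, was 0.534 to 0.537 in RasV12 CD11b+. It was 0.674 for control CD11b+ 2 and 0.823 to 0.887 for the other libraries. The part of depth, background and mitochondrial share in the results below was not tested beyond the fits named beside them.

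**Figure D1:**
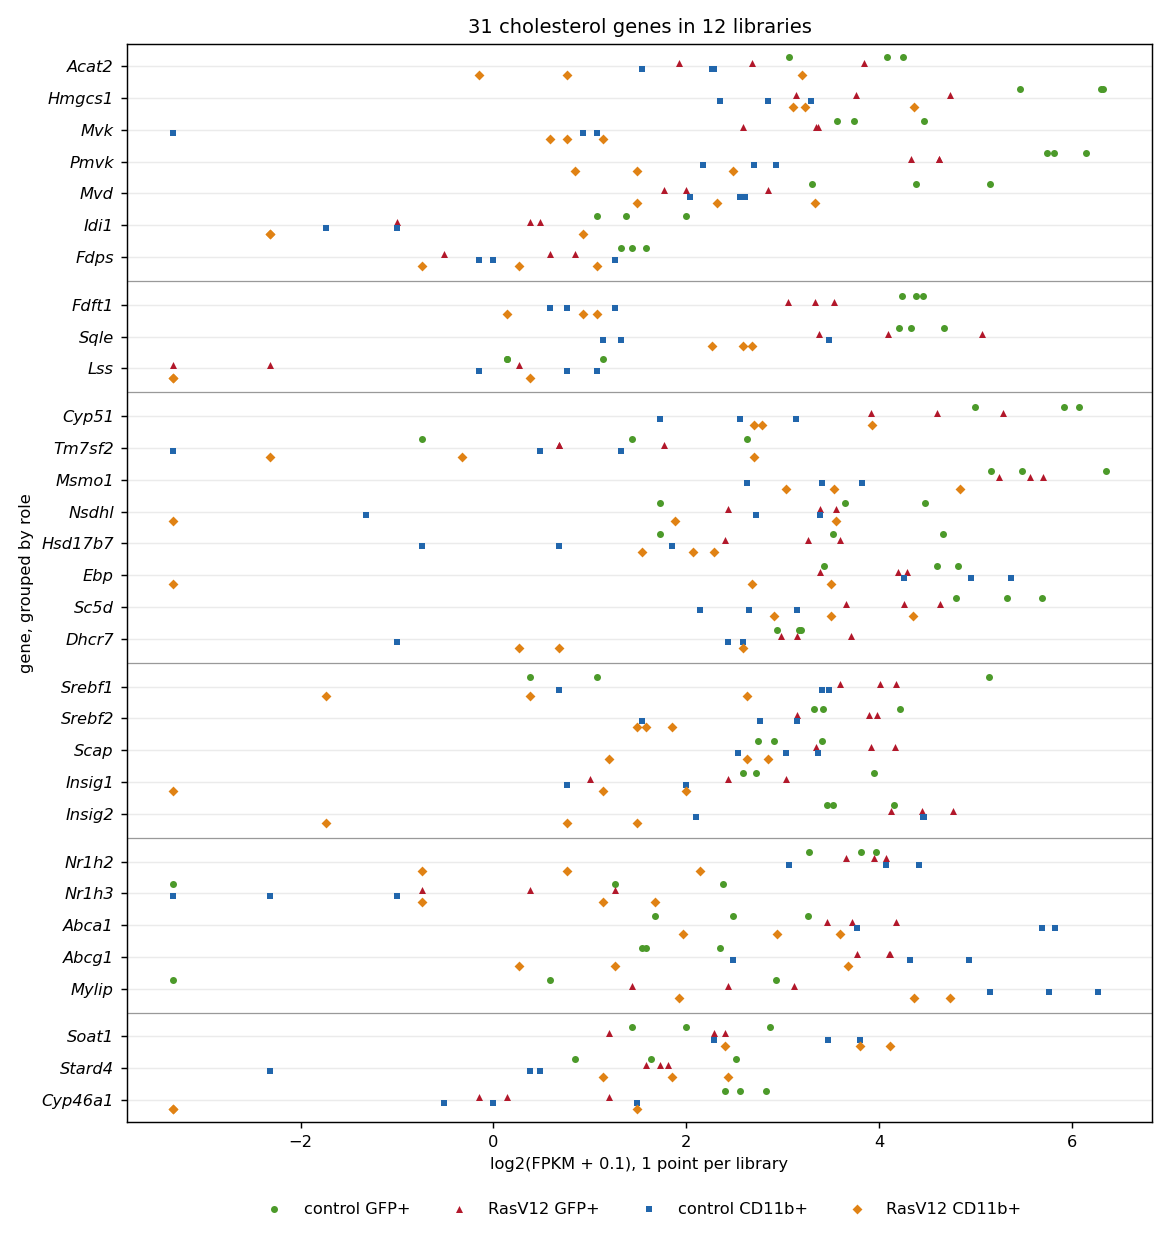
Level of each of the 31 members as log2(FPKM + 0.1) on the horizontal axis, 1 point per library, with the genes in rows grouped by role and the 4 groups marked by colour and shape. For Hmgcs1, Pmvk and Fdft1 the control GFP+ circles lie to the right of every other group, and for Abca1 and Mylip the control CD11b+ squares reach furthest to the right.

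Per length, the leading cholesterol transcripts differed between the groups. By mean FPKM, a level per length that can be compared between genes, Hmgcs1 ranked first of the 31 in control GFP+ (67.6 ± 20.5), followed by Pmvk (60.2 ± 9.35), Msmo1 (53.9 ± 24.4) and Cyp51 (53.2 ± 18.9). In RasV12 GFP+ Msmo1 was first at 45.7 ± 7.18 FPKM, and Hmgcs1 was seventh. In control CD11b+ the LXR and efflux arm led, with Mylip at 55.7 ± 20.99 FPKM and Abca1 at 40.7 ± 23.6, and Ebp was the highest synthesis enzyme at 30.4 ± 11.2. In RasV12 CD11b+ Mylip (16.9 ± 11.8 FPKM) and Msmo1 (16.1 ± 11.0) were first, with spreads wide enough that their order is not resolved. The spreads also overlap between Hmgcs1, Pmvk, Msmo1 and Cyp51 in control GFP+ and between Mylip and Abca1 in control CD11b+.

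The summed FPKM of the 18 synthesis enzymes was 376.0 to 491.3 in control and 180.4 to 296.3 in RasV12 GFP+ cells, and 72.0 to 122.3 and 83.7 to 108.5 in the same order in phagocytes. Both GFP+ groups lay above both CD11b+ groups, the control and RasV12 GFP+ ranges did not overlap, and the 2 CD11b+ ranges did. The summed FPKM of the 5 LXR and efflux genes ran the other way within GFP+ cells, at 21.5 to 32.2 in control and 49.0 to 54.6 in RasV12. In CD11b+ cells it was 62.9 to 171.1 in control and 13.3 to 49.4 in RasV12. No group overlapped its genotype partner in this sum. These sums follow the highest members and are given without a test.

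**Figure D2:**
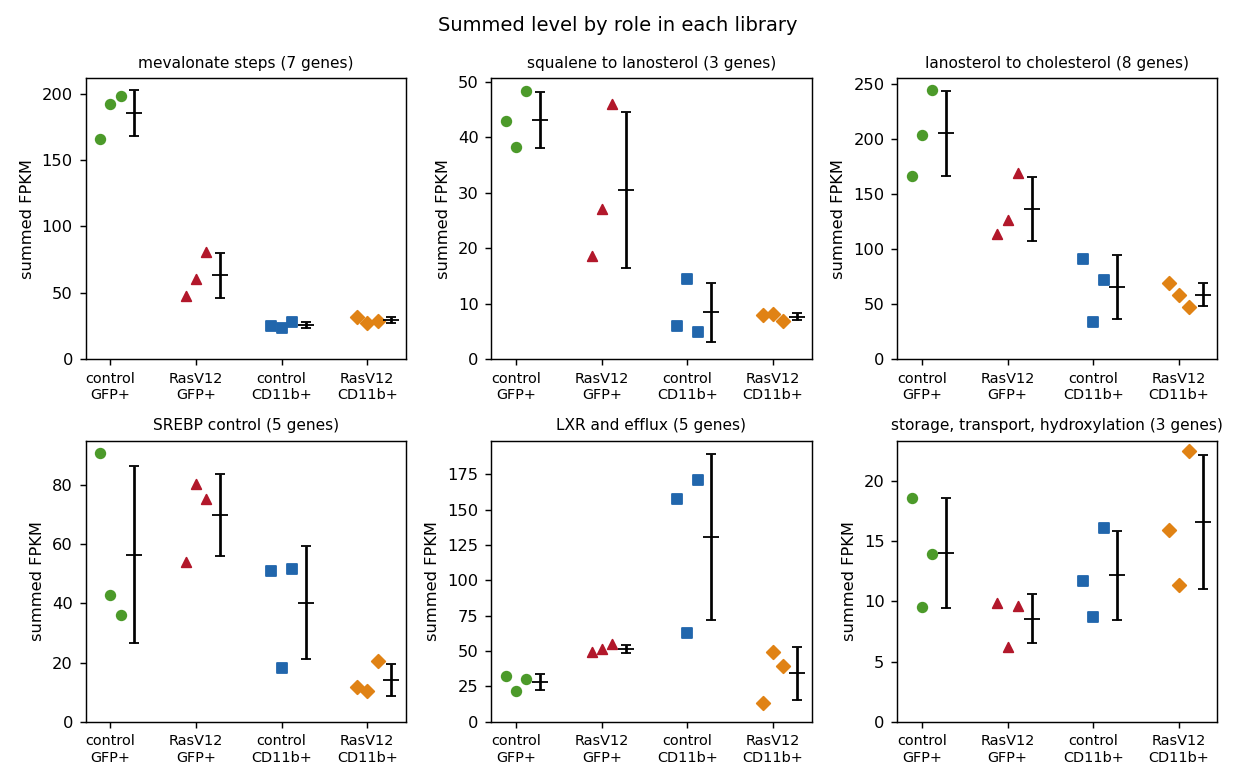
Summed FPKM of the members of each role (vertical axes from 0, each panel on its own scale) in the 12 libraries, with the mean and SD of each group beside its points. The mevalonate sum is 166.1 to 198.1 in control GFP+ and at most 81.1 in the other groups, and the LXR and efflux sum is highest in control CD11b+ (62.9 to 171.1).

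In GFP+ cells, which the labels place in tumor or control cerebellum, most synthesis enzymes had estimates below 0 with RasV12, but a single one passed the test. Hmgcs1, the HMG-CoA synthase that makes the precursor of mevalonate, fell 4.46-fold (limma-trend, Benjamini-Hochberg adjusted p = 0.0253). Of all 29835 genes tested, 6.79% passed, 4.14% higher and 2.65% lower, beside 3.23% of the 31 members, so the members' share is not above that of all genes. Over the 18 enzymes the median log2 fold change was -1.03, with 17 of 18 below 0, beside a median of 0.56 over all genes. For 8 of the 18 every RasV12 library was below every control library, against 10.9% of all genes. Under quantile normalization, which moved the median of all genes to -0.12, the median of the enzymes was -0.79, and it stayed below 0 in every fit run.

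All 7 mevalonate members had a fold change below 0 (median -1.38 on the log2 scale), and for 6 of them the groups did not overlap. Hmgcs1 (ENSMUSG00000093930.2, chr13:119690379-119708260) had normalized counts of 3372, 6126 and 6043 in control GFP+ and of 669, 1036 and 2029 in RasV12 GFP+. All 3 control libraries thus lay above all 3 RasV12 libraries. Its log2 fold change was -2.16 ± 0.53 (SE), and its exons share 557 bases with an antisense gene, Gm48342, whose reads cannot be told apart from its own unless strand was used in counting. Mvd, the decarboxylase that makes isopentenyl diphosphate, was at 1098, 646 and 303 in control and 122, 103 and 221 in RasV12 libraries (log2 fold change -2.08 ± 0.77, adjusted p = 0.138). Pmvk, phosphomevalonate kinase, was at 1530, 1602 and 2026 and at 702, 699 and 571 (-1.38 ± 0.61, adjusted p = 0.231). Neither of the latter passed, although their groups did not overlap. Mvk, Idi1 and Fdps, the mevalonate kinase, the isomerase and farnesyl diphosphate synthase, also did not overlap and had log2 fold changes of -0.83, -1.55 and -1.19, with SEs of 1.16, 1.23 and 0.88. Acat2, the thiolase at the start of the pathway, overlapped (-0.99 ± 0.90). Acat2 and Idi1 have near-identical copies in the genome, and Fdps shares 1124 exon bases (26.7%) with Gm43738 on the same strand, so the counts of these 3 genes are uncertain.

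Between squalene and cholesterol the estimates were less uniform, and no gene passed. Fdft1, squalene synthase, went from 1445 ± 110 to 700 ± 116 normalized counts (log2 fold change -1.06 ± 0.58, adjusted p = 0.363), without overlap. Sc5d, the desaturase of the last steps, was at 3226 ± 962 and 1519 ± 498 (-1.10 ± 0.50, adjusted p = 0.246), without overlap. Cyp51, the lanosterol demethylase, had a similar estimate with overlapping libraries (-1.07 ± 0.56). Sqle, squalene epoxidase and a second control point of the pathway, was at 1973 ± 343 and 1872 ± 1107, and Msmo1, the C4 methyl oxidase, at 5524 ± 2494 and 4683 ± 738. For Sqle and Msmo1 the libraries overlapped and the estimates were -0.23 ± 0.64 and -0.16 ± 0.49. Lss, lanosterol synthase, was low and variable (-2.97 ± 1.72). Tm7sf2, Nsdhl, Hsd17b7, Ebp and Dhcr7 had estimates between -0.32 and 0.19 with SEs of 0.85 to 1.92, so differences of several-fold in either direction were not detectable for most of them. Fdft1 has a processed pseudogene, Gm6781, that matches it over 1249 bases at 97.4% identity, and shares 774 exon bases with Ctsb on the other strand. Its counts are uncertain in every comparison for that reason. Sc5d has a pseudogene copy, Gm31520, at 92.3% identity over 375 bases, and Tm7sf2 shares 532 with Vps51 on the same strand.

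No SREBP control gene passed in GFP+ cells. Srebf2, which encodes the SREBP that mainly drives cholesterol enzymes, was at 2212, 1183 and 1274 in control and at 1054, 1778 and 1876 in RasV12 libraries. The ranges overlap and the estimate was 0.03 ± 0.53. Srebf1, which encodes the SREBP that mainly drives fatty acid genes, was at 3297, 185 and 117 in control and at 1504, 1689 and 1126 in RasV12 libraries. Control GFP+ 1 thus lay above all RasV12 libraries and the other 2 control libraries far below them (1.77 ± 1.35, adjusted p = 0.564). Insig1 was at 790, 338 and 305 and at 96.6, 273 and 418 (-0.96 ± 1.56), and Insig2 at 658, 1026 and 633 and at 1002, 1575 and 1258 (0.74 ± 0.91). Both overlapped. Scap was at 1013 ± 258 and 1775 ± 487 (0.80 ± 0.52).

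In the LXR and efflux arm all 5 members had a positive estimate in GFP+ cells, with a median of 1.33, and none passed the test. Abcg1, the exporter to high-density lipoprotein, was at 338, 198 and 191 in control and at 921, 1167 and 1162 in RasV12 libraries. The groups did not overlap (log2 fold change 2.20 ± 0.87, adjusted p = 0.17). Abca1, the exporter to lipid-poor apolipoproteins, was at 1636, 531 and 951 and at 3110, 1881 and 2270, again without overlap (1.33 ± 0.60, adjusted p = 0.243). Groups apart in this direction were found for 17.2% of all genes, so 2 of 31 members is below that share. Mylip was at 73.1, 0.0 and 405 and at 139, 286 and 466, with overlap (3.09 ± 1.61). Neither receptor passed. Nr1h2, LXR beta, was at 782, 868 and 539 and at 697, 936 and 858 (0.20 ± 0.73). Nr1h3, LXR alpha, was at 97.4, 0.0 and 215 and at 96.6, 50.4 and 21.1 (0.80 ± 1.83). With edgeR on recovered reads the estimate of Nr1h3 turned to -0.87 and that of Mylip was 0.98, and the other 3 stayed above 0. On the log2(count + 1) scale a single library at 0.0, as control GFP+ 2 was for both genes, can enlarge or turn an estimate.

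Of the other 3 members, Cyp46a1, the neuronal cholesterol 24-hydroxylase, was at 317, 282 and 386 in control and at 121, 42.4 and 56.9 in RasV12 GFP+ libraries, without overlap (-2.28 ± 1.62, adjusted p = 0.523). Soat1, which esterifies cholesterol for storage, and Stard4, a sterol carrier, had estimates of -0.12 ± 0.62 and 0.05 ± 0.94.

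The call of Hmgcs1 was lost without control GFP+ 2 or 3 or RasV12 GFP+ 1 or 2 (adjusted p = 0.0892, 0.0822, 0.118 and 0.0906), and with edgeR, quantile normalization, background subtraction or the 6 GFP+ libraries alone (adjusted p = 0.101, 0.157, 0.212 and 0.061). The 3 shallowest libraries are all CD11b+, so leaving them out could not move the estimate of -2.16. Only the pooled spread changed, with an SE of 0.45.

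Cell markers moved with these differences. The summed normalized count of 12 oligodendrocyte genes was 989504 to 1631418 in control GFP+ and 2992 to 17918 in RasV12 GFP+, with 11 of the 12 genes lower, and Mog, a myelin protein gene, went from 16051 ± 866 to 1.4 ± 1.4. For 12 astrocyte and Bergmann glia genes the sums were 335669 to 402739 and 44495 to 109229, with 5 lower, and for 12 neuron genes 83117 to 108247 and 2272 to 3486, with 10 lower. No gene of these 3 lists was at 0 in all 3 libraries of either group. For 8 oligodendrocyte precursor genes the sums were 13966 to 17141 and 1775 to 5714, with 3 lower and Sox10 at 0 in every RasV12 library, and for 5 choroid plexus genes 24311 to 114450 and 18.3 to 96.7, with 2 of 4 tested lower and Aqp1 at 0 there. Of 5 erythroid genes 4 were lower (8894 to 774410 and 82.9 to 507), and of 8 endothelial and pericyte genes 4 were (10307 to 18795 and 5374 to 7888). Myeloid genes ran the other way at low levels. For 12 monocyte and macrophage genes the sums were 273 to 783 and 1148 to 1906, with 4 higher, and for 11 homeostatic microglia genes 537 to 1195 and 1506 to 1862, with 1 higher. Of these, Fcgr3, Itgam, Cd14, Ms4a7, P2ry13, Fcrls, Csf1r and Gpr34 were at 0 in every control library, and Ly6c2 and Tmem119 in every RasV12 library. In bulk libraries fewer cells of a type and less RNA per cell cannot be told apart, and the part of these cell types in the enzyme and exporter differences was not tested.

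**Figure D3:**
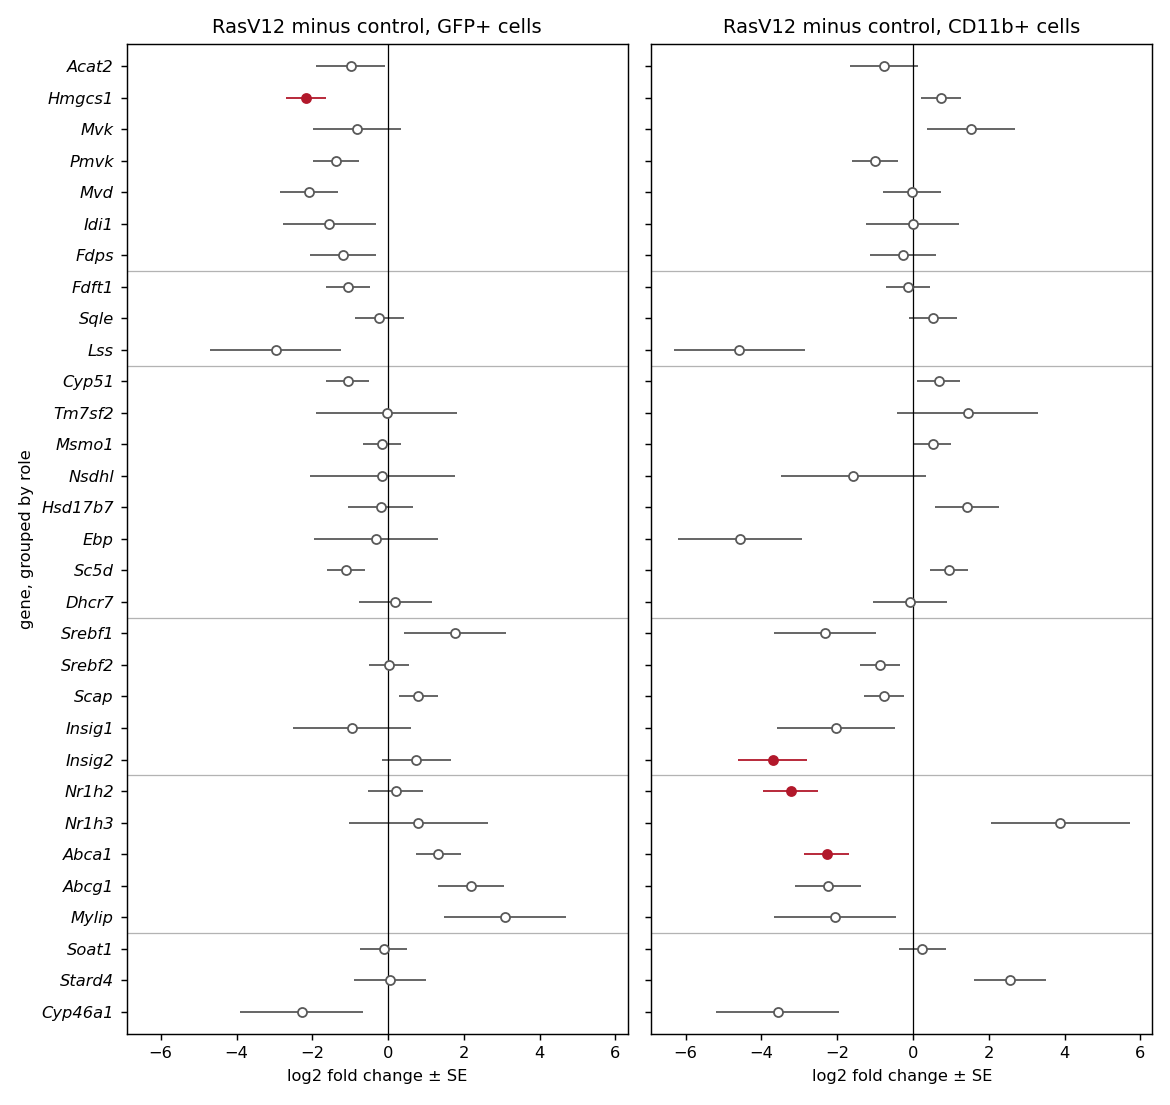
Log2 fold change (RasV12 minus control) with its SE for each member in GFP+ cells (left) and CD11b+ cells (right), with filled red points for members past an adjusted p of 0.05 and lines between the roles. On the left the mevalonate genes lie below 0 (-2.16 to -0.83) and the LXR and efflux genes above it, and on the right the SREBP control genes lie below 0 (-3.70 to -0.76) and the enzymes on both sides.

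In CD11b+ phagocytes the members that passed the test were 2 regulators and an exporter. Their calls rest on a spread pooled with the GFP+ groups, and none was called in the CD11b+ libraries alone. Nr1h2 was 9.41-fold and Abca1 4.85-fold lower in tumor than in control phagocytes, and Insig2 fell by 3.70 on the log2 scale (limma-trend, Benjamini-Hochberg adjusted p = 0.0262, 0.0443 and 0.0351). Of all genes 5.36% passed, 2.97% higher and 2.39% lower, and 9.68% of the members did, all lower. The 18 enzymes had a median log2 fold change of -0.01, with 10 below 0, and the median of all genes was 0.74. The enzyme median turned to 0.12 in the FPKM table and was -0.60 after upper-quartile scaling and -0.92 after quantile normalization. The 5 SREBP control genes were all below 0 with a median of -2.03, and 4 of the 5 LXR and efflux genes were, with a median of -2.23. The -2.03 is the estimate of Insig1, which was at 0.0 in RasV12 CD11b+ 2. Over the alternatives that estimate ranged from -6.14 to 0.37. Srebf2, Insig1 and Insig2 lay below the background in all 3 RasV12 CD11b+ libraries.

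Insig2 (chr1:121304353-121332589), whose product retains SCAP, had normalized counts of 1271, 246 and 1274 in control and of 93.6, 11.1 and 157 in RasV12 CD11b+ libraries. The groups did not overlap, but control CD11b+ 2 was much nearer to the RasV12 libraries than the other 2 controls were. The RasV12 values rest on 21, 2 and 262 reads. Its log2 fold change was -3.70 ± 0.91, and without RasV12 CD11b+ 2, the library with 2 reads, -2.59 ± 0.72 (adjusted p = 0.0667 by limma, not called). Nr1h2 (chr7:44549616-44553951) was at 1186, 466 and 933 and at 89.1, 27.7 and 239, without overlap (-3.23 ± 0.73), from 20, 5 and 398 reads in the RasV12 libraries. Abca1 (chr4:53030787-53159895) was at 8929, 2346 and 9802 and at 664, 1307 and 2065, without overlap (-2.28 ± 0.60), from 149, 236 and 3439 reads. Insig2 lay below the background scaled to its length in all 3 RasV12 CD11b+ libraries (309, 355 and 232 normalized counts expected), Nr1h2 in 2 of 3 (298, 343 and 224) and Abca1 in 1 of 3 (920, 1058 and 691). These RasV12 levels are therefore not told apart from background for Insig2, and only in part for the other 2.

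The other regulators did not pass. Srebf2 was at 1059, 332 and 803 in control and at 321, 349 and 414 in RasV12 CD11b+ libraries, with overlap (-0.87 ± 0.53, adjusted p = 0.302). Srebf1 was at 983, 142 and 1039 and at 116, 16.6 and 573 (-2.32 ± 1.35), and Insig1 at 84.7, 204 and 84.2 and at 200.5, 0.0 and 107 (-2.03 ± 1.56). Both overlapped. Scap was at 991 ± 281 and 639 ± 320 (-0.76 ± 0.52). Abcg1 was at 2058, 369.7 and 1346 and at 71.3, 864 and 158, where RasV12 CD11b+ 2 lay within the control range (-2.23 ± 0.87, adjusted p = 0.13). Mylip was at 2926, 1916 and 4173 and at 200.5, 1429 and 1106, without overlap (-2.07 ± 1.61, adjusted p = 0.418). Nr1h3 went the other way, at 3.1, 0.0 and 16.5 and at 129, 88.6 and 19.2, without overlap (3.89 ± 1.83, adjusted p = 0.192), and lay below the background of all 6 CD11b+ libraries but control CD11b+ 3.

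Among the enzymes, Hmgcs1 was at 545, 380.2 and 739 in control and at 1560, 648 and 712 in RasV12 CD11b+ libraries, with overlap (0.74 ± 0.53). Sc5d, Cyp51 and Msmo1, which with Hmgcs1 cleared the background in every RasV12 library, had estimates of 0.95 ± 0.50, 0.68 ± 0.56 and 0.52 ± 0.49, and their groups overlapped. Ebp, the sterol isomerase, was at 1592, 732 and 1187 and at 432, 0.0 and 242, without overlap (-4.56 ± 1.64, adjusted p = 0.108). Lss had an estimate of -4.58 ± 1.72 (adjusted p = 0.122). Both have a RasV12 library at 0.0, and edgeR put them at -3.26 and -2.85. The remaining enzymes ranged from -1.57 (Nsdhl) to 1.54 (Mvk). Stard4 was at 10.2, 112 and 122 and at 196, 327 and 497, without overlap (2.56 ± 0.94, limma adjusted p = 0.115). In both groups Stard4 lay above its expected background in library 3 alone (498, 572 and 374 normalized counts expected in RasV12 CD11b+). Soat1 was at 1615 ± 759 and 1970 ± 1015, and Cyp46a1 had no reads in 2 of the 3 RasV12 libraries (-3.57 ± 1.62, adjusted p = 0.179). In all, 2 members were higher and 5 lower without overlap, against 19.0% and 8.59% of all genes. The 2 higher were Nr1h3 and Stard4.

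**Figure D4:**
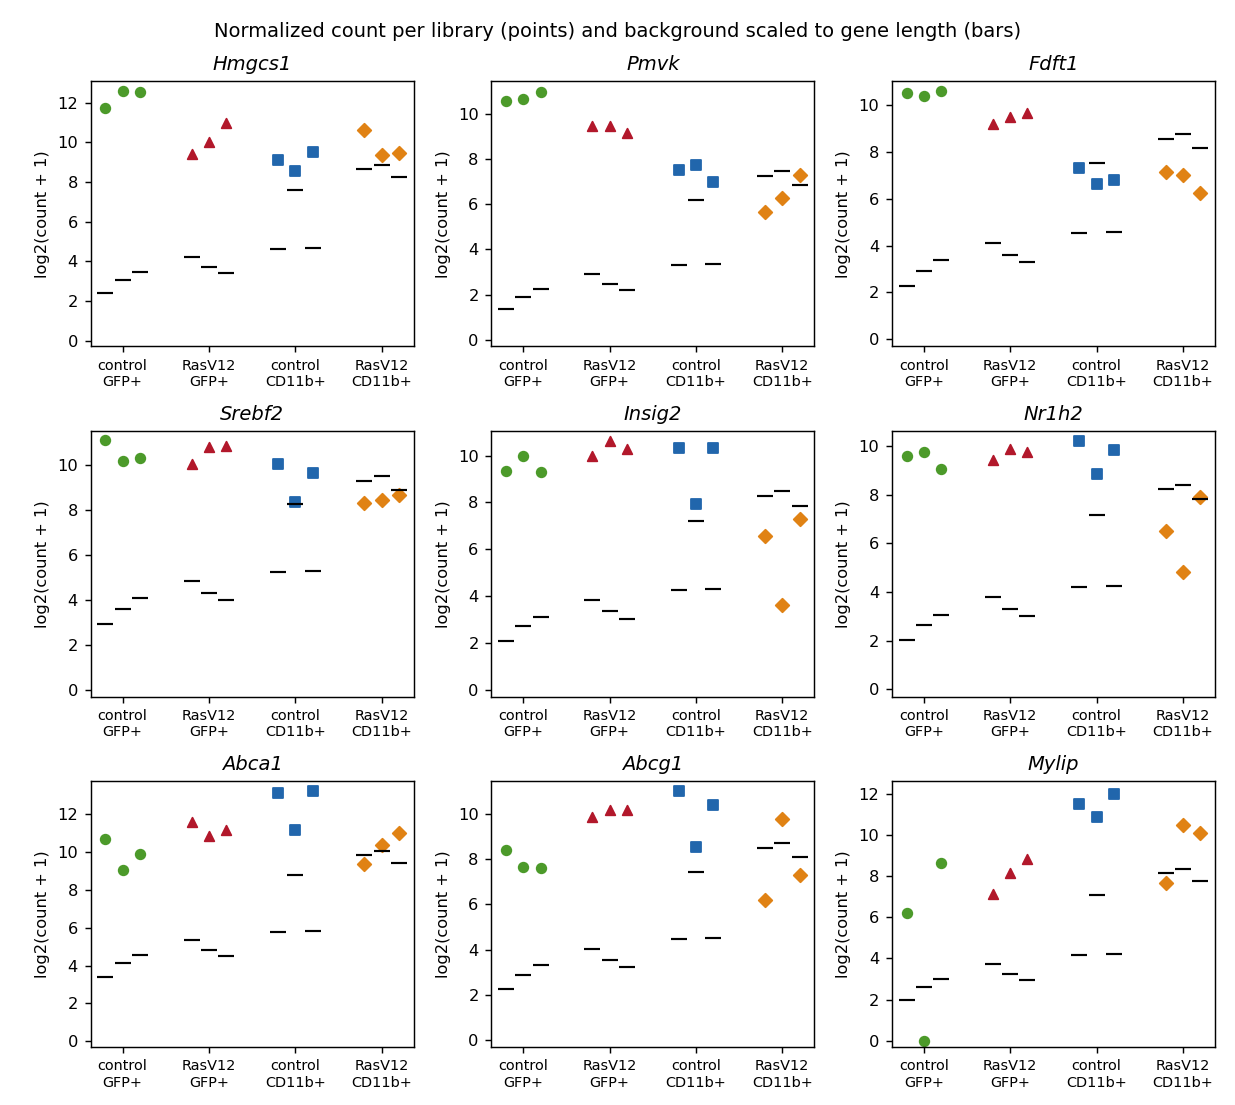
Log2(normalized count + 1) of 9 members in each library (coloured points), with the count expected from background and gene length as a black bar for the same library. In RasV12 CD11b+ the points of Fdft1, Srebf2 and Insig2 lie below the bars in all 3 libraries, and in both GFP+ groups the points lie far above the bars except for Mylip, at 0.0 in control GFP+ 2.

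Insig2 was not called without any 1 of RasV12 GFP+ 1, 2 or 3, control CD11b+ 1 or 3, or RasV12 CD11b+ 2 (adjusted p of 0.052 to 0.156), Nr1h2 without control CD11b+ 1 or 3 (0.116 and 0.106), and Abca1 without control GFP+ 3, RasV12 GFP+ 1, 2 or 3, control CD11b+ 1 or 3, or RasV12 CD11b+ 1 or 2 (0.0593 to 0.196). None of the 3 was called in the 6 CD11b+ libraries alone (limma adjusted p = 0.148, 0.129 and 0.136) or with edgeR (0.051, 0.0603 and 0.0575). With those 6 libraries alone 0 of the 29835 genes passed, and the SEs of Insig2, Nr1h2 and Abca1 were 1.18, 0.92 and 0.68. With no filter Insig2 and Abca1 were not called (0.0532 and 0.0758), nor was Abca1 with a pseudocount of 0.25 or after background subtraction (0.0574 and 0.0999). The size also moved with single libraries. Without control CD11b+ 2 Insig2 was at -4.49 and Abca1 at -2.94, without RasV12 CD11b+ 2 Nr1h2 was at -2.45, and without RasV12 CD11b+ 3 Insig2 was at -4.44 and Nr1h2 at -3.98. Background subtraction, which set counts below the background to 0, gave -9.07, -8.12 and -6.29 for Insig2, Nr1h2 and Abca1. These sizes therefore rest in part or in full on RasV12 CD11b+ counts set to 0. Quantile normalization gave -5.44 and -5.21 for Insig2 and Nr1h2. Without the 3 shallowest libraries, which leaves 1 RasV12 CD11b+ library assumed to vary like the other groups, Insig2 and Nr1h2 were at -3.01 ± 0.44 and -2.13 ± 0.42 (adjusted p = 0.00603 and 0.0191) and Abca1 at -2.18 ± 0.62 (adjusted p = 0.0581), and 5 members passed. Upper-quartile scaling and quantile normalization moved the median of all genes from 0.74 to 0.21 and 0.13. Under both, the medians of the SREBP control and the LXR and efflux genes stayed below 0, while that of the 8 enzymes from lanosterol to cholesterol turned from 0.60 to -0.02 and -0.03. That median was -0.38 with edgeR and with array weights, -0.41 without control CD11b+ 2, -0.11 without the 3 shallowest libraries and -3.06 after background subtraction, with 7 of the 8 below 0 in the edgeR and background fits. Summed normalized counts of 11 homeostatic microglia genes were 180254 to 622325 in control and 47806 to 62139 in RasV12 CD11b+ libraries, with 1 of 11 lower in the test and none at 0 throughout. For 12 monocyte and macrophage genes they were 41449 to 147855 and 25154 to 39191, with 1 lower and none at 0, and for 8 neutrophil genes 12946 to 26378 and 2201 to 3650, with 2 of 7 tested lower and Elane and Ly6g at 0 in every RasV12 library. Ptprc, the pan-leukocyte gene, was at 7844 ± 1723 and 6469 ± 2010. Endothelial and pericyte sums were 570 to 2370 and 3868 to 4796 (1 of 8 higher), and oligodendrocyte precursor sums 264 to 1465 and 1310 to 3849 (1 of 8 higher). Neuron sums were 1350 to 4299 and 4324 to 8026 (1 of 12 higher, 2 lower). Astrocyte and Bergmann glia sums were 7022 to 10636 and 9164 to 15745 (3 of 12 higher, 1 lower). Oligodendrocyte sums were 13611 to 16604 and 8556 to 12716 (1 of 12 lower). No erythroid or choroid plexus gene was called. The part of these cell types in the result was not tested.

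The RasV12 effects, here the differences between tumor and control cerebellum libraries, differed between CD11b+ and GFP+ cells for 2 of the 31 members. This rests on the interaction term of the same fit. The members' share of 6.45% is near the 4.4% of all genes (2.06% in the direction of Hmgcs1 and 2.34% in that of Abca1). For Hmgcs1 the effect in CD11b+ cells exceeded that in GFP+ cells by 2.90 ± 0.74 on the log2 scale (adjusted p = 0.0435), with 3 of 3 RasV12 libraries below all controls in GFP+ cells and overlap in CD11b+ cells. For Abca1 the difference was -3.61 ± 0.85 (adjusted p = 0.03), with all RasV12 libraries above the controls in GFP+ cells and all below them in CD11b+ cells. Abcg1, Insig2 and Nr1h2 had differences of -4.43 ± 1.22, -4.44 ± 1.29 and -3.44 ± 1.04 that did not pass (adjusted p = 0.0582, 0.07 and 0.0799). All 5 SREBP control genes had a difference below 0 (median -1.56), and all 7 mevalonate genes above 0 (median 1.55). Of these 7, 5 were above 0 after upper-quartile scaling, 3 after quantile normalization (median -0.25) and 2 after background subtraction (median -2.14). The call of Hmgcs1 was lost without each of 8 libraries, namely control GFP+ 2 and 3, RasV12 GFP+ 1 and 2, control CD11b+ 1, 2 and 3, and RasV12 CD11b+ 1 (adjusted p = 0.0552 to 0.109), and that of Abca1 without each of 8, namely control GFP+ 2 and 3, RasV12 GFP+ 1, 2 and 3, control CD11b+ 1 and 3, and RasV12 CD11b+ 1 (0.0549 to 0.0942). Without the 3 shallowest libraries Hmgcs1 was at 2.32 ± 0.81 (adjusted p = 0.108) and Abca1 at -3.51 ± 0.74 (adjusted p = 0.0243). Hmgcs1 was also lost with upper-quartile scaling, quantile normalization, no filter, edgeR and background subtraction (adjusted p = 0.109, 0.125, 0.0693, 0.269 and 0.257; 1.81 with edgeR and 2.27 after subtraction). Abca1 was lost with no filter and after background subtraction (0.0552 and 0.181), and its difference was -4.28 without control CD11b+ 2, -4.51 with edgeR and -7.64 after subtraction.

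Within the control cerebellum, 9 of the 18 synthesis enzymes and 2 of the 5 LXR and efflux genes differed between phagocytes and GFP+ cells. The enzymes were lower in phagocytes (Hmgcs1, Mvk, Pmvk, Fdft1, Sqle, Cyp51, Msmo1, Hsd17b7 and Sc5d) and the LXR targets Abca1 and Mylip higher, 11 of 31 members, beside 26.2% of all genes (6.91% lower and 19.3% higher). Fdft1 fell from 1445 ± 110 to 122 ± 32.7 normalized counts (log2 fold change -3.58 ± 0.58, adjusted p = 0.000973 by limma). Hmgcs1 fell 9.32-fold (-3.22 ± 0.53, adjusted p = 0.00109), and Pmvk from 1719 ± 268 to 175 ± 44.8 (-3.31 ± 0.61, adjusted p = 0.00226). Cyp51 was 9.32-fold and Sc5d 6.24-fold lower. Mylip rose from 159 ± 216 to 3005 ± 1130 (6.52 ± 1.61 on the log2 scale, adjusted p = 0.0111). This size rests on the 0.0 in control GFP+ 2. It was 4.04 without that library, 7.15 and 8.38 without control GFP+ 1 or 3, 4.24 with DESeq2 and 3.95 with edgeR, where Mylip was not called (adjusted p = 0.0656). Abca1 rose from 1039 ± 558 to 7026 ± 4077 (2.65 ± 0.60, adjusted p = 0.00727). For 13 of the 18 enzymes every phagocyte library was below every GFP+ library, and over all 31 members this held for 17, against 12.7% of all genes, and the opposite for 3, against 32.9%. The median over the enzymes was -2.54, while that of all genes was 1.80, or -0.02 under quantile normalization. Ebp and Lss were the enzymes with an estimate above 0, Ebp at 808 ± 351 in GFP+ cells and 1171 ± 430 in phagocytes (0.58 ± 1.64). The 12 oligodendrocyte and the 12 astrocyte and Bergmann glia genes were all lower in the phagocytes, and their part in the result was not tested.

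Hmgcs1, Fdft1, Cyp51 and Sc5d were called in every one of the 27 alternatives. Sqle was lost without control CD11b+ 1 or 3 (adjusted p of at most 0.0539) and Hsd17b7 without control GFP+ 1 or 2 or control CD11b+ 2 or 3 (at most 0.118), and without the 3 shallowest libraries Hsd17b7 and Mylip were not called (adjusted p = 0.125 and 0.061). After background subtraction Pmvk, Sqle, Msmo1, Hsd17b7, Abca1 and Mylip were not called (adjusted p = 0.104, 0.318, 0.0518, 0.13, 0.499 and 0.177). Mvk, Hsd17b7 and Mylip were lost in the 6 control libraries alone (0.0561, 0.0863 and 0.0599), and Sqle and Hsd17b7 under quantile normalization (0.0579 and 0.0691). Without control CD11b+ 2 Mvk was at -2.98, Sqle at -3.20, Hsd17b7 at -2.06 and Abca1 at 3.32. Mvk was at -5.55 and -5.50 without control CD11b+ 1 or 3, and Hsd17b7 at -2.08 and -3.57 without control GFP+ 1 or 3 and -3.42 without control CD11b+ 1. After background subtraction Fdft1 and Cyp51 were at -5.96 and -4.04.

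Within the tumor, 11 members were lower in phagocytes than in GFP+ cells and none was higher, beside 40.1% of all genes (10.2% lower and 29.8% higher). They were 5 enzymes (Pmvk, Fdft1, Sqle, Cyp51 and Msmo1), 4 of the 5 SREBP control genes (Srebf1, Srebf2, Scap and Insig2), and Nr1h2 and Abcg1. Insig2 had a log2 fold change of -4.47 ± 0.91 (adjusted p = 0.0033 by limma), Nr1h2 of -3.27 ± 0.73 (adjusted p = 0.00512) and Pmvk of -2.94 ± 0.61, from 658 ± 74.7 to 94.8 ± 56.5 normalized counts (adjusted p = 0.00354). Srebf2 went from 1569 ± 449 to 361 ± 47.7 (-2.08 ± 0.53, adjusted p = 0.00901). The sizes are uncertain, since in RasV12 CD11b+ Insig2, Srebf2 and Fdft1 lay below background in all 3 libraries and Nr1h2 and Pmvk in 2 of 3. Background subtraction set every count below the background to 0, so its values are not measured falls. It gave -10.28 for Insig2, -8.33 for Nr1h2, -7.52 for Pmvk, -10.55 for Srebf2 and -9.41 for Fdft1. Hmgcs1 and Abca1 were not called between the tumor populations, with 1245 ± 704 and 973 ± 509 for Hmgcs1 and 2420 ± 628 and 1346 ± 702 for Abca1. Groups did not overlap for 13 members, all lower, against 14.8% of all genes lower and 36.0% higher. The median of all genes, 1.79, was 1.195 after upper-quartile scaling and 0.30 after quantile normalization. Astrocyte and Bergmann glia genes were lower in the tumor phagocytes for 6 of 12, homeostatic microglia genes higher for 10 of 11 and monocyte and macrophage genes higher for 10 of 12, and mitochondrial reads were 1.53 to 2.62% in tumor GFP+ cells and 13.3 to 17.7% in tumor phagocytes. Their part in the result was not tested.

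Pmvk, Fdft1, Srebf2, Insig2 and Nr1h2 were called in all 27 alternatives. These include background subtraction, where Fdft1, Srebf2 and Insig2 were set to 0 in all 3 RasV12 CD11b+ libraries. The other 6 were lost without at least 1 library: Msmo1 without RasV12 GFP+ 1 or RasV12 CD11b+ 1, Scap without RasV12 GFP+ 2 or 3 or RasV12 CD11b+ 1, Sqle without any control or RasV12 library but RasV12 GFP+ 1 and control CD11b+ 1 and 2, Cyp51 without control GFP+ 1, 2 or 3, RasV12 GFP+ 2 or 3, control CD11b+ 1, or RasV12 CD11b+ 2 or 3, Srebf1 without RasV12 GFP+ 1, 2 or 3, control CD11b+ 1 or 3, or RasV12 CD11b+ 1 or 2, and Abcg1 without control GFP+ 1 or 3, RasV12 GFP+ 1, 2 or 3, control CD11b+ 1 or 3, or RasV12 CD11b+ 1 or 3. The highest adjusted p were 0.0589 for Msmo1, 0.101 for Scap, 0.199 for Sqle, 0.185 for Cyp51, 0.162 for Srebf1 and 0.169 for Abcg1. Without the 3 shallowest libraries Sqle, Cyp51, Srebf1 and Scap were not called (adjusted p = 0.0849, 0.0581, 0.567 and 0.0756), and Insig2, Nr1h2 and Pmvk were at -2.99, -1.78 and -2.04. Without RasV12 CD11b+ 2 Insig2 was at -3.36, Nr1h2 at -2.49, Srebf1 at -2.46 and Abcg1 at -3.33, and without RasV12 CD11b+ 3 Insig2 was at -5.22, Nr1h2 at -4.02 and Srebf1 at -4.97. Abcg1 was at -1.54 without RasV12 CD11b+ 1. Srebf1 was also lost with edgeR, DESeq2, no filter and background subtraction (0.0867, 0.0814, 0.0658 and 0.0678). Cyp51 was lost with quantile normalization, array weights, the 6 tumor libraries alone, background subtraction, a pseudocount of 0.25 and no filter (0.0509, 0.0625, 0.0635, 0.0553, 0.0528 and 0.0735). Abcg1 was lost with DESeq2 (-1.58, 0.127), the 6 tumor libraries alone, a pseudocount of 0.25 and no filter (0.082, 0.0535 and 0.0682). Sqle was lost in the FPKM table, with a pseudocount of 0.25 and with no filter (0.0502, 0.0551 and 0.0735), and Scap in the 6 tumor libraries alone (0.0533).

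Of 58 further genes of the same biology (lipoprotein uptake, intracellular sterol transport, oxysterol enzymes, other LXR and SREBP targets, SREBP processing), 57 were tested. In GFP+ cells 1 was higher and 5 lower with RasV12, beside 4.14% and 2.65% of all genes, and the 4 with the smallest adjusted p were all lower. Osbpl1a, an oxysterol-binding protein gene, went from 4225 ± 900 to 283 ± 124 normalized counts (log2 fold change -3.96 ± 0.48, adjusted p = 0.000401 by limma). Apoe, the main lipid carrier of the brain, went from 140971 ± 25683 to 14057 ± 4372 (-3.36 ± 0.57, adjusted p = 0.00319), Apoc1 from 319 ± 37.4 to 14.3 ± 14.2 (-4.93 ± 1.03, adjusted p = 0.0112) and Apod from 12971 ± 6238 to 208 ± 58.7 (-5.89 ± 1.39, adjusted p = 0.0212). Apod was lost without control GFP+ 1 or 2 or RasV12 GFP+ 1, 2 or 3 (adjusted p of at most 0.0767), and the other 3 were kept without each library in turn, though Osbpl1a was lost after background subtraction and Apoc1 with quantile normalization and edgeR. Glial cells, whose markers were lower in the same libraries, are known to use Apoe and Apod, and their part in the result was not tested.

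In CD11b+ cells none of the 57 was higher and 5 were lower, beside 2.97% and 2.39% of all genes. Lrp1, a lipoprotein receptor, went from 13770 ± 9181 to 1333 ± 524 normalized counts (-3.09 ± 0.65, adjusted p = 0.0188 by limma), Scd2, a fatty acid desaturase, from 2629 ± 1758 to 548 ± 359 (adjusted p = 0.0319), Cyp27a1, the sterol 27-hydroxylase, from 1868 ± 451 to 204 ± 156 (adjusted p = 0.0337) and Lpcat3, an LXR target that remodels phospholipids, from 3023 ± 1775 to 490 ± 314 (adjusted p = 0.0437). Each of the 4 was lost without control CD11b+ 1 or 3. Lrp1 was also lost without RasV12 CD11b+ 2, Scd2 without RasV12 GFP+ 2 or RasV12 CD11b+ 1 or 3, Cyp27a1 without RasV12 GFP+ 2 or RasV12 CD11b+ 2, and Lpcat3 without control GFP+ 1 or 3, RasV12 GFP+ 1, 2 or 3, or RasV12 CD11b+ 1 or 3 (adjusted p of at most 0.0936, 0.141, 0.141 and 0.183). Among the other SREBP targets of fatty acid synthesis, 5 of 12 were lower in control phagocytes than in control GFP+ cells and 7 of 12 in tumor phagocytes than in tumor GFP+ cells, with 0 and 1 higher. Of all genes 6.91% were lower and 19.3% higher in the first comparison and 10.2% lower and 29.8% higher in the second.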

How the data were processed

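RNA of GFP+ cells and CD11b+ phagocytes was amplified with a low-input kit and sequenced, per the labels' protocols. The deposited FPKM table and the deposited table of normalized counts were used. The latter is a signal that the authors made by scaling the read counts of each library by 1 factor, as its deposited values show. Per the submitters' processing notes the tools were HISAT2 2.1.0, featureCounts of Subread 1.6.2 and DESeq2 1.20.0, with GRCm38.p6. Whole reads were recovered from the steps of the normalized counts (99.64 to 99.99% of values whole within 0.05).

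Groups were compared on the log2(normalized count + 1) scale with the trend method of limma 3.58.1 under R 4.3.3. The scale understates changes of low genes and can overstate them where a library is at 0. The fit covered 29835 genes with 10 or more in 3 or more of 12 libraries. It had 1 mean per group, a spread pooled over the groups, and Benjamini-Hochberg adjusted p with a threshold of 0.05. Alternatives included edgeR 4.0.16 and DESeq2 1.42.0 on recovered reads. Background subtraction, another alternative, took the background scaled to gene length from each count and set negative values to 0. The model was tested on simulated data, where it recovered few of the smaller changes, so a gene that did not pass may still differ. Gene positions are those of the GRCm38 annotation. The members, roles and further lists were chosen with earlier results of these data known. Every member is named, with library values for those called between genotypes or central to regulation, and further pathway genes by smallest adjusted p, at most 4 per comparison.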

Additional observations from a re-analysis of the deposited data

Results flagged for a closer look

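The difference between RasV12 tumor and control cerebellum libraries, in which genotype and tissue change together, was unlike in the 2 cell populations for Hmgcs1 and Abca1. For Hmgcs1 it differed by 2.90 on the log2 scale (CD11b+ minus GFP+, SE 0.74, limma adjusted p = 0.0435), and for Abca1 by -3.61 (SE 0.85, adjusted p = 0.03). Each was marked because the interaction term of the fit passed the threshold. The share of members that passed, 6.45%, is near the 4.4% of all genes. Over the alternatives the adjusted p ranged from 0.00796 to 0.269 for Hmgcs1 and from 0.00332 to 0.181 for Abca1.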

How the results depend on the processing

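Of 28 calls of a member in a comparison, 9 were kept in every alternative (27 were run) and 19 were lost in at least 1. For members called in neither fit a change of sign was not counted as a reversal. Called members numbered 1 in GFP+ cells, 3 in CD11b+ cells, 11 between the control populations, 11 between the tumor populations and 2 for the difference of effects. In GFP+ cells they numbered 0 with quantile normalization, edgeR or background subtraction, 3 with array weights and 4 with DESeq2 or with 2 groups only. Of all 29835 genes 1043, 1122, 1148, 4097, 4907 and 2932 were called in these fits, in that order, and 2027 in the main fit. In CD11b+ cells they numbered 6 with quantile normalization or background subtraction, 5 with array weights, 1 with no filter and 0 with 2 groups only or edgeR. Of all genes 2421, 2977, 3808, 1084, 0 and 434 were called in these fits, in that order, and 1599 in the main fit. With no filter 45618 genes were tested, and 29835 in the other fits named here. Between the tumor populations they numbered 17 with quantile normalization, 7 with no filter and 18 after background subtraction. Of all genes 9276, 10603 and 8773 were called in these fits, and 11953 in the main fit. For the difference of effects they numbered 4 with a pseudocount of 8 or background subtraction, 0 with no filter, 5 with array weights and 6 with DESeq2. Of all genes 1919, 2513, 976, 3102 and 3135 were called in these fits, in that order, and 1312 in the main fit. Without the 3 shallowest libraries, an alternative chosen after seeing the data, the counts were 3 in GFP+ cells and 12 between the control populations. Of all genes 3570 and 8386 were called there. The other comparisons kept 1 RasV12 CD11b+ library. Leaving out each library in turn gave 0 to 1 in GFP+ cells and 0 to 4 in CD11b+ cells. It gave 9 to 13 between the control populations, 6 to 13 between the tumor populations and 0 to 4 for the difference of effects. Of all genes 1042 to 2382, 373 to 5248, 5160 to 8707, 8118 to 12797 and 578 to 2227 were called, in that order. One value reversed: Nr1h3 between the tumor populations was -5.34 after background subtraction (adjusted p = 0.0498). With the replicate number as a block the difference of effects had 1 member called, as Hmgcs1 was lost (limma adjusted p = 0.0576). Cyp51 and Abcg1 were lost between the tumor populations, where 10 were called. Of all genes 1173 and 11785 were called in these 2 comparisons. Same-numbered libraries did not deviate together (correlations -0.029 to 0.09). This cannot show whether they came from the same animal, since noise between libraries could hide a pairing, and the labels do not say. Depth and background limit what RasV12 CD11b+ levels can show.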
